A study of Rattus norvegicus with 6 samples.

Results

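MHC class II antigen presentation, represented by 8 genes, was examined in the renal cortex of rats: the transactivator gene Ciita, the invariant chain gene Cd74, the classical class II chains RT1-Da, RT1-Db1, RT1-Ba and RT1-Bb, and the peptide exchange factor chains RT1-DMa and RT1-DMb. All 8 genes had a probe on the array, with probes assigned by transcript accession through RefSeq (assembly GRCr8), and together they had 17 probes among 61537 non-control probes. Of the 17 probes, 15 were tested and covered 7 of the 8 genes. The 2 probes left untested, the only one for RT1-Ba and 1 of 3 for RT1-Bb, were not well above background on all 3 arrays of either group.

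The study profiled 6 male Sprague-Dawley (Crl:CD(SD)) rats that were 5 weeks old at purchase, on 1-colour Agilent arrays with 1 animal's cortex RNA on each array. The vehicle group was 3 rats given corn oil for 4 weeks. The treated group was 3 rats dosed for 4 weeks with sulfone bis(p-chlorophenyl) at 250 mg/kg each day; the compound is a sulfone carrying chlorinated phenyl rings. Neither group carried a transgene or other allele named in the labels. The comparison asked how repeated dosing changed transcript levels in the cortex.

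Class II molecules display peptides from the endosomal pathway to CD4+ T cells. Dendritic cells, B cells and macrophages express them all the time, and many other cells, tubular epithelium among them, can be induced to do so by interferon-gamma. CIITA does not bind DNA itself but docks on factors assembled at the paired X and Y boxes of class II promoters: RFX proteins on the X box and NF-Y on the Y box. CD74 then occupies the groove of newly made class II molecules and steers them to endosomes, where DM exchanges its remnant for antigenic peptide.

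The promoters of 5 of the 8 genes held that paired arrangement, and they are printed here because it is the arrangement at which CIITA is known to act. RefSeq promoters of GRCr8 were found for 6 members: Cd74, RT1-Da, RT1-Db1, RT1-Ba, RT1-Bb and RT1-DMa. Ciita and RT1-DMb were not analysed here in this respect. In the windows below, written 5′ to 3′ on the gene's own strand, capitals mark an X-box core (GNNACNG) and a Y-box core (ATTGG). In the Cd74 window capitals mark AGCAAC, the letters that the X box of RT1-Da also holds.
RT1-Da: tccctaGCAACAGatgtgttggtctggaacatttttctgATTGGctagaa
RT1-Ba: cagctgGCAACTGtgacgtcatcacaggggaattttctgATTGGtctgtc
RT1-Db1: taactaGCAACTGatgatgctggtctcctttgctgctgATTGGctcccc
RT1-Bb: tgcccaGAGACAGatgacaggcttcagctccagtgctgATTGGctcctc
RT1-DMa: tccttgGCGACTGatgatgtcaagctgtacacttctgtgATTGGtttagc
Cd74: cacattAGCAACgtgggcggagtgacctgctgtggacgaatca

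These windows lie at chr20:4515327-4515376 (plus strand), chr20:4576975-4577024 (plus), chr20:4560232-4560280 (minus), chr20:4604169-4604217 (minus), chr20:4712389-4712438 (minus) and chr18:56527129-56527171 (plus), in the order printed, all in the 250 bases before the annotated gene start. The distance from the first base of the X core to the first base of the Y core was 33 bases in RT1-Da, RT1-Ba and RT1-DMa and 32 bases in RT1-Db1 and RT1-Bb. An X core 15 to 35 bases before a Y core on the gene's strand was present in 5 of the 6 member promoters and in 1.65% of 33469 promoters. Counted on either strand the share of all promoters was 3.14%. The letters and spacing were chosen after these promoters had been seen, and a match is a description of letters, not evidence of binding. Alone, ATTGG on either strand occurred in 34.0% of promoters, CTGATTGG in 3.19% and the short X core in 82.1%. The CTGATTGG letters were present in 4 of the 6 member promoters. ATTGG and the short X core, each on either strand, were present in 6 of 6. The Cd74 promoter thus held both cores, but not in the paired arrangement.

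Values below are log2 processed signals from which each array's own 75th percentile was subtracted, so a value of 0 is a signal at that percentile, and a difference of 1 is a doubling. Groups were compared with limma across all 40643 tested probes, with Benjamini-Hochberg adjustment over all of them and a threshold of 0.05. Slide and scan divided the arrays unevenly: slide 1 held the 3 vehicle arrays and treated 1, and slide 2 held treated 2 and 3. Between 66.1% and 68.2% of probes on an array were well above background, and array pairs correlated at 0.982 to 0.994 across tested probes. Probes of 8 proximal tubule genes and of the thick limb gene Umod were well above background on all 6 arrays. Most probes met that mark on each array, so it does not by itself identify the tissue. Precision is limited by having 3 arrays in each group, and p-values measure only the spread between these animals.

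No class II member passed the test, and among the tested members only Ciita had a group difference near 1 on the log2 scale. Both RT1-DMa probes were higher on every treated array than on any vehicle array, with smaller log2 differences of 0.27 and 0.35. The signals of the other tested members were close to each other in both groups or split the arrays across the groups. By limma, 0 of 15 member probes had an adjusted p below the threshold, beside 0.00738% of all tested probes (0.00492% lower and 0.00246% higher). At an unadjusted p below 0.05, 2 member probes were lower and 1 was higher, beside 12.2% and 8.37% of all probes (20.6% in either direction). The groups did not overlap for 2 lower and 2 higher member probes, beside 17% and 11.5% of all probes (28.4% in either direction), and the members' shares are thus near the background. Over 1 probe per gene, the brightest, the 7 tested members had a median log2 difference of -0.12, against -0.01 for 12118 tested genes.

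Ciita, the regulator that switches class II transcription on, had lower signals on every treated array. Its brighter probe (A_64_P010569) had -1.16, -1.57 and -1.76 in vehicle 1, 2 and 3 and -2.00, -2.64 and -2.70 in treated 1, 2 and 3. The groups did not overlap, and treated 1 lay nearest to the vehicle arrays. The means were -1.50 ± 0.31 (SD, n = 3) and -2.45 ± 0.38 (SD, n = 3), a log2 difference of -0.95 (SE 0.24, limma adjusted p = 0.141). The second Ciita probe (A_44_P435782) had -2.34, -2.78 and -3.25 in vehicle rats against -3.43, -3.81 and -3.79 in treated rats. It gave a log2 difference of -0.89 (SE 0.24, limma adjusted p = 0.155), so both probes of this gene had the same order of arrays between the groups. On slide 1 alone, treated 1 minus the vehicle mean was -0.51 and -0.64 for the brighter and the second probe. Without treated 1, whose slide mates were the vehicle arrays, the brighter probe was called lower, at a log2 difference of -1.17 (limma adjusted p = 0.032). In that comparison of slide 1 vehicle arrays with slide 2 treated arrays, 6.98% of all probes were called lower and 3.61% higher, and slide and treatment cannot be told apart.

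**Figure D1:**
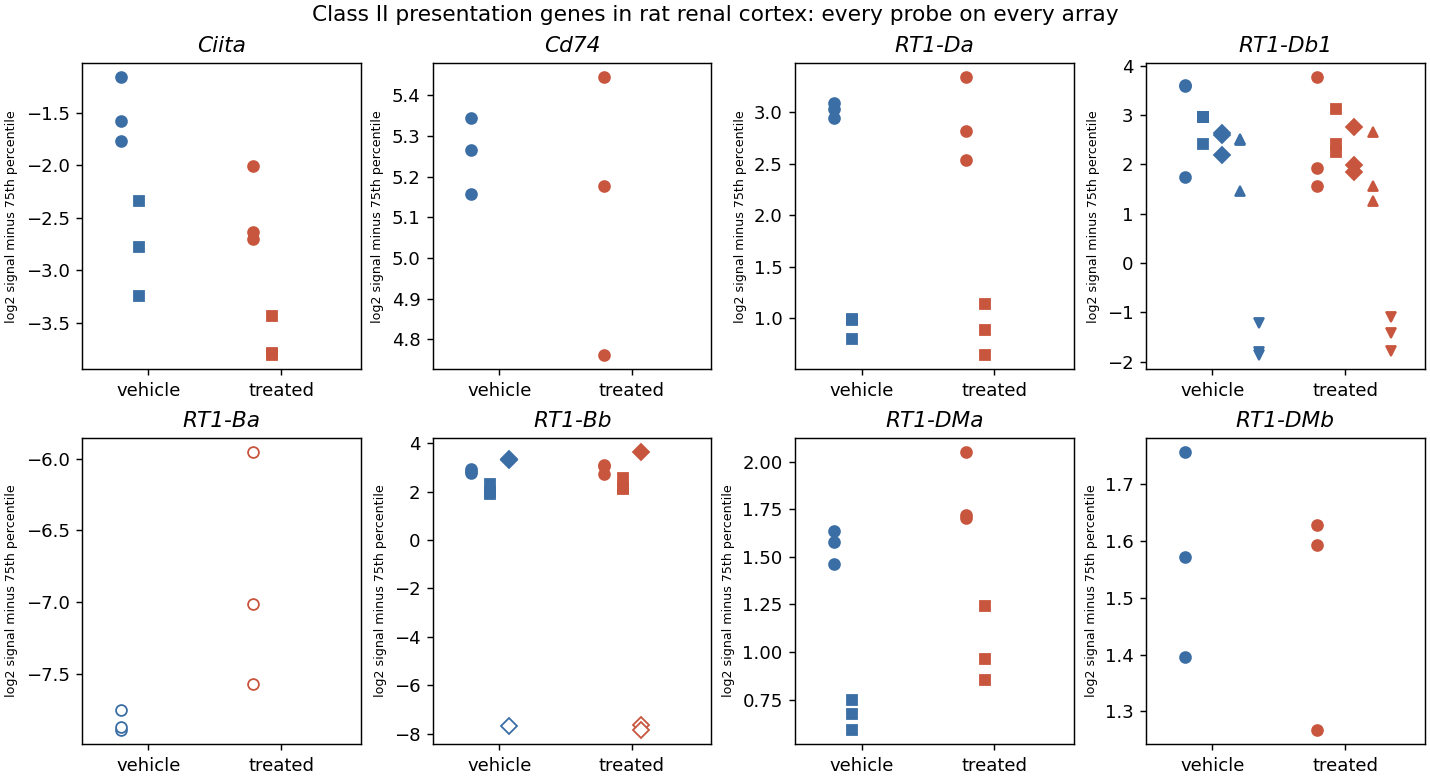
Signals of every class II member probe on every array, as log2 signal minus the array's 75th percentile, with vehicle arrays in blue and treated arrays in red. Marker shapes separate the probes of a gene, open markers were not well above background, and each panel has its own vertical range. The Ciita values of the treated arrays lie below all vehicle values for both probes, whereas Cd74, RT1-Da, RT1-Db1 and RT1-DMb overlap.

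Cd74, the invariant chain that escorts class II molecules, had 5.26, 5.35 and 5.16 in vehicle rats against 5.18, 5.45 and 4.76 in treated rats. The groups overlapped, with both the highest and the lowest value in the treated group. Its log2 difference was -0.13 (SE 0.18, limma adjusted p = 0.709), and 0.06 without treated 3. Ciita and Cd74 thus differed in their group means by different amounts, but that contrast between the genes was not tested.

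The DM chains edit the peptide cargo of class II molecules, and the 2 chains had different values. RT1-DMa had 1.58, 1.64 and 1.46 in vehicle rats against 1.71, 2.05 and 1.72 in treated rats with its brighter probe. Its second probe had 0.67, 0.75 and 0.59 in vehicle rats against 0.85, 1.24 and 0.97 in treated rats. For both probes every treated array lay above every vehicle array. The log2 differences were 0.27 (SE 0.12, limma adjusted p = 0.271) and 0.35 (SE 0.12, limma adjusted p = 0.198), and on slide 1 alone they were 0.15 and 0.18. RT1-DMb, its partner chain, had 1.40, 1.76 and 1.57 in vehicle rats against 1.59, 1.63 and 1.27 in treated rats, a log2 difference of -0.08 (SE 0.14, limma adjusted p = 0.773) with overlapping groups.

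RT1-Da encodes the alpha chain of the D molecule, the rat counterpart of HLA-DR. Its brighter probe had 2.95, 3.03 and 3.09 in vehicle rats against 3.34, 2.82 and 2.53 in treated rats, so treated 1 was above and treated 2 and 3 were below all vehicle arrays. The log2 difference was -0.12 (SE 0.21, limma adjusted p = 0.754), against 0.32 on slide 1 alone. With the second probe treated 1 was again the highest and treated 3 the lowest, and treated 2 lay among the vehicle arrays, at 0.80, 0.99 and 0.98 in vehicle rats against 1.14, 0.88 and 0.64 in treated rats, and a log2 difference of -0.04 (SE 0.14, limma adjusted p = 0.897).

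**Figure D2:**
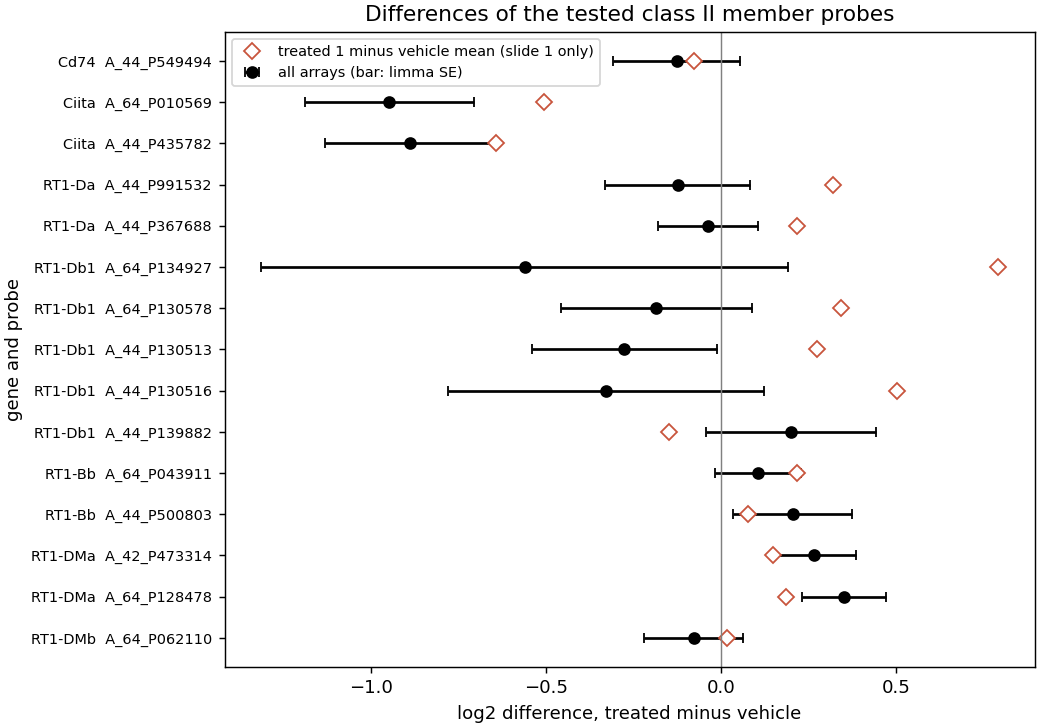
Log2 difference, treated minus vehicle, of the 15 tested member probes, with limma standard errors as bars and the slide 1 value, treated 1 minus the vehicle mean, as open diamonds. Both Ciita probes lie near -0.9 with slide 1 values of -0.51 and -0.64, while the RT1-Da and RT1-Db1 probes change sign on slide 1.

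The beta chain genes RT1-Bb and RT1-Db1 held the largest differences between animals, and these ran across the treatment groups. One RT1-Bb probe (A_44_P552452) had 3.30, 3.34 and 3.65 in vehicle 2, vehicle 3 and treated 1 but -7.69, -7.65 and -7.84 in vehicle 1, treated 2 and treated 3. It was well above background on the first 3 arrays named and on none of the other 3. Set against the lowest signals that counted as well above background on those arrays, the bright arrays were at least 485-fold higher. Both other RT1-Bb probes showed no such split. The brightest of them (A_64_P043911) had 2.92, 2.85 and 2.78 in vehicle rats against 3.07, 3.09 and 2.71 in treated rats, a log2 difference of 0.11 (SE 0.12, limma adjusted p = 0.649). The third (A_44_P500803) had 2.29, 1.97 and 1.91 in vehicle rats against 2.14, 2.57 and 2.09 in treated rats, a log2 difference of 0.20 (SE 0.17, limma adjusted p = 0.517). The same gene thus gave level signals with 2 probes and a signal on 3 of 6 arrays with the other.

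All 5 RT1-Db1 probes separated the same 3 animals from the other 3, by different amounts and not all in 1 direction. The widest (A_64_P134927) had 3.59, 3.60 and 3.77 in vehicle 2, vehicle 3 and treated 1 against 1.75, 1.92 and 1.57 in vehicle 1, treated 2 and treated 3. A second (A_44_P130516) had 2.50, 2.51 and 2.66 against 1.46, 1.55 and 1.27. The other pair that was higher in the first 3 animals had narrower gaps, at 2.96, 2.95 and 3.12 against 2.41, 2.40 and 2.25 (A_64_P130578) and at 2.63, 2.60 and 2.75 against 2.19, 2.00 and 1.84 (A_44_P130513). The fifth (A_44_P139882) ran the opposite way, with -1.87, -1.80 and -1.78 against -1.22, -1.09 and -1.42. Treated minus vehicle differences of the 5 probes lay between -0.56 and 0.20 with standard errors of 0.24 to 0.75, and slide 1 gave the opposite sign for each. RT1-Db2, a neighbouring class II beta chain gene outside the 8, had 1.51, 1.54 and 1.58 in the first 3 animals and 0.86, 0.81 and 0.46 in the others. Sprague-Dawley is an outbred stock and RT1 genes are highly polymorphic, as background; the RT1 alleles of these animals and the probe sequences were not given in the sources used here. The split coincided with slide for 5 of the 6 arrays: vehicle 2, vehicle 3 and treated 1 were on slide 1 and treated 2 and 3 on slide 2, while vehicle 1 was on slide 1. The part of slide in it was not tested.

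Probes of other RT1 genes followed the same split. Of 3974 annotated probes that were well above background on at least 1 array and had an SD of at least 0.4 over the 6 arrays, 25 had a Pearson's r of 0.95 or more, in either sign, with the splitting RT1-Bb probe over the 6 arrays. Probes of RT1 genes made up 11 of those 25 (44%) and 15 of the 3974 (0.377%), and 3 of the 11 were the RT1-Db1 and RT1-Db2 probes already described. The threshold and the likeness to this probe were chosen after its values were seen, values of the RT1-Bb probe on 3 arrays are below background, and the points are the same 6 arrays throughout. Among the 11 were class I genes, which present peptides to CD8+ T cells: RT1-A1 had 3.97, 4.08 and 3.96 in vehicle 2, vehicle 3 and treated 1 against 3.09, 3.02 and 3.11 in the others. RT1-CE16 had 3.86, 3.95 and 3.77 against 2.54, 2.43 and 2.62. RT1-CE10 ran the opposite way, with -0.65, -0.72 and -0.85 against 0.33, 0.33 and 0.53. The 14 other probes belonged to genes without an RT1 name, among them Tex10, which lay between -4.10 and -3.86 in the first 3 animals and between -1.13 and -0.85 in the others. Also among them was Ly6g6e, which lies near the class II genes on the same chromosome. It had -1.88, -2.07 and -2.11 in the first 3 animals against -3.90, -4.82 and -4.73.

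**Figure D3:**
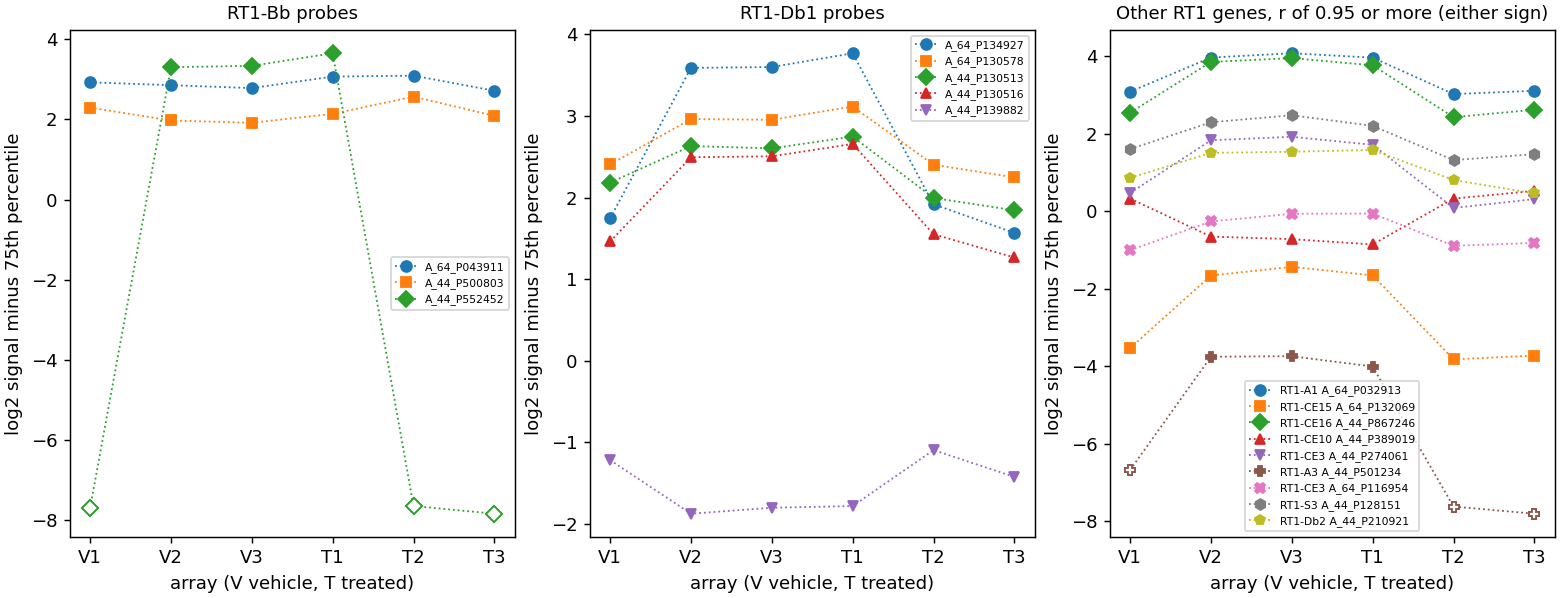
Log2 signal minus the array's 75th percentile on each array (V vehicle, T treated) for the 3 RT1-Bb probes, the 5 RT1-Db1 probes and probes of other RT1 genes with a Pearson's r of 0.95 or more in either sign. Dotted lines join the values of a probe, and open markers were not well above background. V2, V3 and T1 stand apart from V1, T2 and T3 in 1 RT1-Bb probe and in all RT1-Db1 probes, while the other RT1-Bb probes are level.

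RT1-Ba, the alpha chain that pairs with RT1-Bb, had a single probe, well above background on 0 of 6 arrays, so no difference is given. Its partner RT1-Bb was well above background on every array with 2 probes.

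Another 3 class II genes were tested, and none passed. RT1-DOa and RT1-DOb encode the chains of DO, which restrains DM, and had log2 differences of 0.18 (SE 0.21, limma adjusted p = 0.651) and -0.003 (SE 0.14, limma adjusted p = 0.993). The RT1-Db2 difference was -0.35 (SE 0.33, limma adjusted p = 0.57). At an unadjusted p below 0.05, 0 of these 3 genes were lower or higher.

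Genes of class II transcription and interferon-gamma signalling lay on both sides of 0, with 9 negative and 10 positive differences. Of 19 tested genes 0 passed in limma, beside 0.0165% of all genes, and at an unadjusted p below 0.05, 1 was lower and 1 was higher, beside 11.3% and 10.1% of genes. Their median log2 difference was 0.01, and it lay on either side of 0 under the alternatives (-0.09 with the mean of each gene's probes, 0.05 with median centring, -0.05 without vehicle 2, -0.08 without treated 3). Irf1, a transcription factor that acts on an interferon-responsive Ciita promoter, had 1.89, 1.98 and 2.27 in vehicle rats against 1.33, 1.61 and 1.91 in treated rats. The groups overlapped, with a log2 difference of -0.43 (SE 0.18, limma adjusted p = 0.243), and the receptor chain Ifngr1 had 0.20 (SE 0.08, limma adjusted p = 0.231). Ifng itself had no probe well above background. The RFX subunit genes, whose proteins bind the X box, had 0.55 (SE 0.25) for Rfx5, 0.23 (SE 0.11) for Rfxank and -0.19 (SE 0.12) for Rfxap, with limma adjusted p-values of 0.271, 0.273 and 0.405. Without treated 1, Rfxank was called higher.

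Of 19 tested genes of antigen uptake, processing and class II turnover, 0 passed in limma, 15 had negative differences and the median was -0.09 (-0.15 on slide 1, -0.14 with slide as a random block and -0.04 without treated 1). At an unadjusted p below 0.05, 4 were lower and 1 was higher, beside 11.3% and 10.1% of all genes. The Fc receptor gene Fcgr1a, which takes up immune complexes, had 1.88, 1.60 and 1.89 in vehicle rats against 1.54, 1.30 and 1.45 in treated rats, a log2 difference of -0.36 (SE 0.12, limma adjusted p = 0.185). Cst3, an inhibitor of cysteine cathepsins, had 0.32 (SE 0.11, limma adjusted p = 0.208), and the cathepsin gene Ctsz had -0.33 (SE 0.12, limma adjusted p = 0.211). Ctss, the protease that trims the invariant chain in antigen presenting cells, had 0.07 (SE 0.15, limma adjusted p = 0.823). Marchf1, the ubiquitin ligase that sends class II molecules to lysosomes, had -0.53 (SE 0.20, limma adjusted p = 0.219) and was called lower without treated 1.

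Of 12 costimulation and T cell partner genes on the array, 6 were tested, and these 6 all had negative differences. Among all 12118 tested genes, 6364 differences were negative. Of the 6, 0 passed in limma and 2 were lower at an unadjusted p below 0.05 (beside 11.3% of all genes), with a median of -0.30. That median was -0.10 with normexp background correction, -0.11 with dim probes kept, -0.11 on slide 1 and -0.55 with the mean of each gene's probes. Cd83, a surface protein of activated dendritic and B cells that opposes the removal of class II by Marchf1, stood lowest. It had 0.10, 0.08 and -0.06 in vehicle rats against -0.65, -1.10 and -1.10 in treated rats. The groups were apart by more than their spread, yet the log2 difference of -0.99 (SE 0.15) did not pass over all probes (limma adjusted p = 0.084). On slide 1 it was -0.69, and without treated 1 it was called lower. Cd40, the receptor through which helper T cells activate antigen presenting cells, had -0.38 (SE 0.12, limma adjusted p = 0.182), and the T cell inhibitory receptor Ctla4 had -0.60 (SE 0.26, limma adjusted p = 0.261). Cd28, Cd40lg, Cd80 and Pdcd1lg2 had no probe well above background.

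The marker lists of B cells, macrophages and dendritic cells, and those of T cells and all leukocytes, had negative median differences beside Ciita. None of these markers passed, and their part in the Ciita difference was not tested. The 8 proximal tubule genes had a median of 0.07 (-0.23 on slide 1). Counts of the leukocyte marker lists at an unadjusted p below 0.05, here and in the next paragraph, stand beside 11.3% lower and 10.1% higher among all genes. In RNA from whole cortex, fewer cells of a type and less RNA per cell cannot be told apart. The pan-leukocyte list had a median log2 difference of -0.43 (-0.17 on slide 1), with 0 of 8 genes passing in limma and 5 lower at an unadjusted p below 0.05. The sum of their linear signals, relative to the array's 75th percentile, was 28.5 to 34.9 in the vehicle and 21.2 to 29.9 in the treated arrays. The B cell list had a median of -0.20, or -0.08 with normexp and -0.13 with dim probes kept (0 of 6 passing, 2 lower at an unadjusted p below 0.05), and its summed signals did not overlap, at 3.34 to 3.79 in the vehicle and 2.57 to 2.96 in the treated arrays. Blk and Cr2 had no probe well above background.

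Macrophage markers had a median of -0.26 (-0.09 on slide 1, -0.42 without vehicle 2), with 0 of 13 passing in limma, 5 lower and 1 higher at an unadjusted p below 0.05, and summed signals of 101 to 119 in the vehicle and 76.8 to 117 in the treated arrays. Dendritic cell markers had a median of -0.13, with 0 of 8 passing in limma and 2 lower at an unadjusted p below 0.05, and summed signals of 4.28 to 4.89 and 3.60 to 4.81. The 2 lower genes were Itgae and Cd83, and Cd83 is the same probe already counted among the costimulation genes. Flt3 and Itgax had no assigned probe. The dendritic median depended on the setting, at 0.002 with normexp, -0.04 on slide 1, -0.06 with slide as a random block, -0.04 without vehicle 1, -0.20 without vehicle 2, -0.28 without treated 1 and -0.007 without treated 2. The macrophage marker Marco and the dendritic marker Xcr1 had no probe well above background. T cell markers had a median of -0.38, or -0.01 on slide 1, -0.24 with slide as a random block, -0.22 with normexp, -0.20 without vehicle 1 and -0.18 without treated 2. Of these markers 0 of 9 passed in limma and 1, Cd2, was lower at an unadjusted p below 0.05. Cd2 was well above background on 3 vehicle arrays and 1 treated array, so it was tested through the vehicle group alone. The same holds for the macrophage marker Msr1, 1 of the 5 lower, which was well above background on 3 vehicle and 2 treated arrays. With detection required on all 6 arrays, 8 T cell and 12 macrophage markers remained, with medians of -0.34 and -0.26. Summed signals of the T cell markers were 2.37 to 2.95 and 1.73 to 2.71, and Trat1 had no probe well above background. In these lists treated 1 lay closer to the vehicle arrays than treated 2 and 3, as it did for Ciita. The same held over all tested probes, so this order is not particular to these genes. There the median absolute log2 difference from a vehicle array was 0.149 to 0.186 for treated 1 and 0.204 to 0.242 for treated 2 and 3. Without treated 1, 17 of the 110 pathway and marker genes tested were called lower and 2 higher, among them Aif1, Adgre1, Coro1a and Cd53, beside 6.98% and 3.61% of all probes, in a comparison where slide and treatment cannot be told apart.

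**Figure D4:**
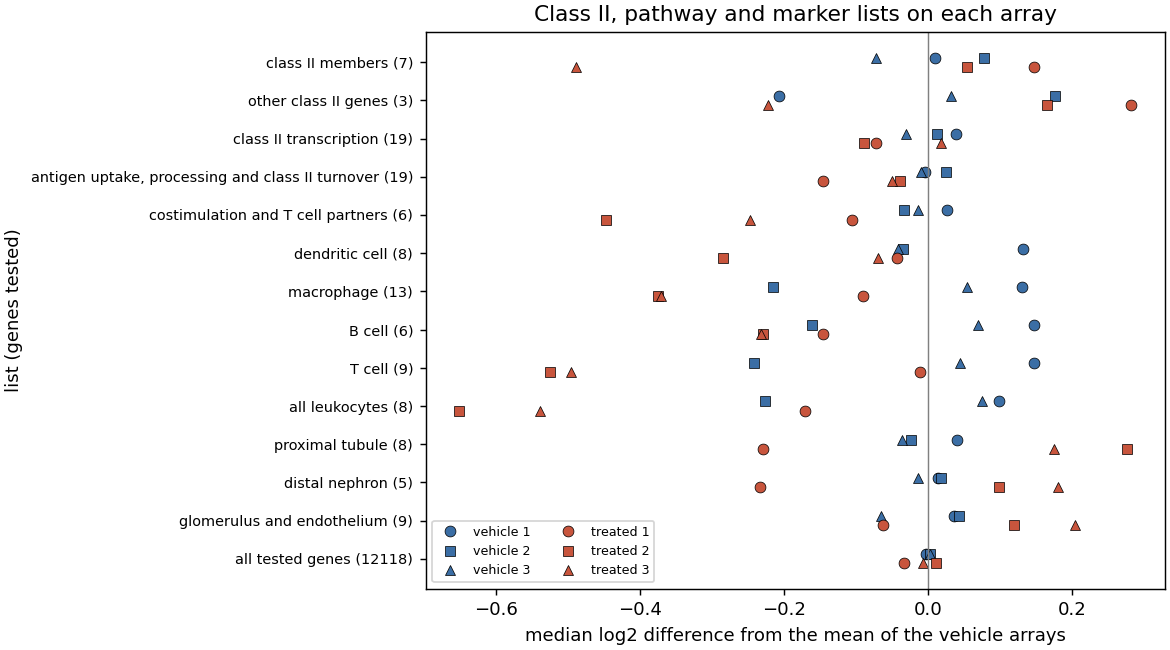
Median log2 difference from the mean of the 3 vehicle arrays, for each list (number of genes tested in brackets) and each array, vehicle in blue and treated in red. Treated 2 and 3 lie between -0.65 and -0.37 for leukocyte, T cell and macrophage markers, whereas for the class II members treated 1 and 2 lie within 0.15 of the vehicle mean and treated 3 is at -0.49.

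The mean of the 7 measured members, each centred on its own mean over the arrays, was -0.04, 0.23 and 0.13 in vehicle 1 to 3 and 0.23, -0.10 and -0.45 in treated 1 to 3. Treated 3 was the lowest array and treated 1 and vehicle 2 were the highest. The 5 genes outside the list with the most similar values over the 6 arrays were Ap5m1, Cfap157, Rad1, Slc16a8 and Ptn, with root mean square differences of 0.031 to 0.059 on the log2 scale among 7751 candidates. None of these 5 passed the test, with limma adjusted p-values of 0.44 to 0.593.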

How the data were processed

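Cortex RNA from 6 rats was measured on 1-colour arrays. Per the file headers, the authors read each spot's background-subtracted intensity using Feature Extraction 10.7.1.1 (Agilent); the submitters' processing notes give 10.7. The deposited series table holds the same intensity values (log2 correlation of at least 0.999999) and served as an alternative. Groups and replicate numbers came from the labels.

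Here the processed signals were put on the log2 scale and centred on each array's 75th percentile. Control spots and 11 probes with an outlier flag were dropped; no spot was saturated. Testing required a signal well above background on the 3 arrays of either group. By unversioned accession, 28206 probes received a symbol and 33331 did not; 0 had several. The test was limma 3.58.1 (R 4.3.3, lmFit and eBayes, two-sided), tested on simulated data. In the pathway lists, none of which had a gene passing, the 3 genes of lowest unadjusted p were named, except 1 gene that is not reported here. Rfx5, Rfxank, Rfxap, Ctss, Marchf1, the genes of the split and the marker genes were named after their values were seen. The members and lists were chosen with earlier results of these data known.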

Additional observations from a re-analysis of the deposited data

How the results depend on the processing

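No member and no list gene passed under any alternative tried except without treated 1; leaving out single arrays gave 0 to 1 members and 0 to 19 list genes. Over all probes, the 3 calls became 17 after median centring, 136 after normexp (run on median spot signals, as the files hold no mean), 1 when dim probes were kept, 0 when detection was required on every array, 1 for a fixed slide block, 0 for the replicate block, 153 under a variance trend, and 0 to 4307 when single arrays were left out. Replicate numbers did not pair the animals: deviations of same-numbered arrays correlated at -0.21, 0.01 and -0.16, and the replicate block called 0 members. The members' median became 0.15 under the fixed slide block, ranged from -0.16 to 0.06 when single arrays were left out, and was -0.10 without RT1-Db1 and -0.10 without Ciita, both added after seeing the data. In all 16 alternatives both Ciita probes kept a negative sign (-1.17 to -0.51) and both RT1-DMa probes a positive one (0.15 to 0.43). The fixed slide block, which leaves treated 1 as the only comparison within a slide, turned RT1-Da to 0.320 and 0.216, RT1-Db1 to 0.790, 0.342, 0.275, 0.503 and -0.150, and RT1-DMb to 0.0173. The random slide block turned RT1-Da to 0.0713 and 0.0738 and 3 RT1-Db1 probes to 0.0326, 0.0465 and 0.0362. Leaving out single arrays turned Cd74 (-0.286 to 0.0563), RT1-Da (-0.346 to 0.0589 and -0.165 to 0.0862) and RT1-DMb (-0.169 to 0.0356), in each case without treated 3, and RT1-DMb also without vehicle 2 (0.01). The cause of these changes was not tested. Signal near background limits RT1-Ba, 1 RT1-Bb probe and Ifng.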
